A study of Mus musculus with 2 samples.

Results

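Il4, Il5, Il6, Il9, Il13, Areg and Csf2 encode 7 secreted mediators of type 2 immunity, and they were taken by symbol as 7 of the 32285 gene rows. The RNA came from single cells of the fetal lung, sorted as live CD45+ Lin- ST2+ cells, the gate used for group 2 innate lymphoid cells (ILC2s). All animals were wild type. From gestation day 12 the 9-week-old mothers received drinking water that held PBS alone or dexamethasone (DEX), a glucocorticoid drug, at 1.3 µg/ml, and lungs were taken on day 18. Lungs of a litter were pooled and given 1 hashtag, from 8 fetuses (DEX-1), 9 fetuses (DEX-2), 5 fetuses (PBS-1) and 8 fetuses (PBS-2). Litters were thus the replicates, 2 per group, and values by litter are given below in the order DEX-1, DEX-2, PBS-1, PBS-2.

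ILC2s are tissue-resident lymphocytes that carry no antigen receptor and release type 2 cytokines when epithelial alarmins such as IL-33 reach them. Mast cells and basophils also carry ST2, the IL-33 receptor, and share with ILC2s the use of Il4 and Il13. IL-4 and IL-13 act through receptors that share a chain and drive IgE switching, mucus and alternative macrophage activation. IL-5 and GM-CSF, the product of Csf2, support eosinophils and other myeloid cells, IL-9 supports mast cells and ILC2s, amphiregulin (Areg) is an epidermal growth factor receptor ligand linked to epithelial repair, and IL-6 is a pleiotropic inflammatory cytokine.

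Il4 (ENSMUSG00000000869, GRCm38 chr11:53602982-53618669, minus strand), Il13 (ENSMUSG00000020383, chr11:53631324-53634702, minus strand) and Il5 (ENSMUSG00000036117, chr11:53720794-53725106, plus strand) lie in the type 2 cytokine locus. In GENCODE M21, 12654 bases separate Il4 from Il13 and 86091 separate Il13 from Il5, with Rad50 between the latter pair. Csf2 (ENSMUSG00000018916, chr11:54247271-54249667, minus strand) lies 522164 bases beyond Il5. Il9 (ENSMUSG00000021538, chr13:56479277-56482246, minus strand), Il6 (ENSMUSG00000025746, chr5:30013114-30019981, plus strand) and Areg (ENSMUSG00000029378, chr5:91139599-91148432, plus strand) lie elsewhere. Il4, Il13 and Il5 share a locus but are not ordered alike over the classes below. Il6 is the member with a single main source outside the ILC2-like cells. For these 4 genes the 250 bases before the start site are shown. They were taken from RefSeq (GRCm38.p6), are written 5′ to 3′ on the gene's strand, and span chr11:53618666-53618915, chr11:53634703-53634952, chr11:53720544-53720793 and chr5:30012864-30013113 in that order.
Il4: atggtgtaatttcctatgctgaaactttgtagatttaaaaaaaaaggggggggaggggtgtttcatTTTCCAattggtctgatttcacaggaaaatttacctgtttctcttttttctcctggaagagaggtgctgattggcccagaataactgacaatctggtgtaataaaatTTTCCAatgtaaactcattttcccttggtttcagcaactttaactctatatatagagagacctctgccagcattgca
Il13: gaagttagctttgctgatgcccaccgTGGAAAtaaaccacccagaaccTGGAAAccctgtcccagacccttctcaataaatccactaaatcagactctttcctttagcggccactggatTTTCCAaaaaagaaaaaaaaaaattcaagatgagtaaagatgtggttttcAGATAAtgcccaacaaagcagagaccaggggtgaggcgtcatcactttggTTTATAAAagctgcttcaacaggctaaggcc
Il5: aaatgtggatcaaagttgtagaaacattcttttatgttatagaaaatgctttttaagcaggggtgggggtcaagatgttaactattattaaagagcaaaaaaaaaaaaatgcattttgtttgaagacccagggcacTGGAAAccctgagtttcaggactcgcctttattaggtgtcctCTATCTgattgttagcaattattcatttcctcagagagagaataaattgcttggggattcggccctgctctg
Il6: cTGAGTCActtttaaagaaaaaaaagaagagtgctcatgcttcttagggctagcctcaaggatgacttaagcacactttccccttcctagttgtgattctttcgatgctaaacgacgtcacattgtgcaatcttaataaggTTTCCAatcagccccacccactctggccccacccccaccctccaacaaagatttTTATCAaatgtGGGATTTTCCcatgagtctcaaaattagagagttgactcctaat
Capitals mark every match, on either strand, to 6 motifs: GATA (GATAA or GATAG after an A or a T), NFAT (TGGAAA), AP-1 (TGANTCA), NF-kB, CRE (TGACGTCA) and the TATA box (TATAAA). The NFAT letters occurred at 2 places before Il4, at 3 before Il13, and at 1 each before Il5 and Il6, against 18.6% of 32851 mouse promoter windows with at least 1. A GATA word, the letters read by the ILC2 and mast cell regulators of the GATA family, stood before Il13, Il5 and Il6 but not in the Il4 window, and 26.5% of windows held one. Il6 alone of these 4 held the NF-kB letters, which 0.356% of windows held. Il13 had the TATA letters at 2 overlapping positions, 1 on each strand. These matches describe letters in a window only.

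After filtering, 7268 barcodes carried 1 hashtag, and 1737 to 1890 of them fell in each litter at a median of 7458 to 8325 UMIs (unique molecular identifiers, one per captured RNA molecule). Although the labels call the cells ILC2s, clusters with ILC2 markers held 2077 cells (28.6%), mast-like clusters 2316 (31.9%) and a basophil-like cluster 492 (6.77%). A further 418 cells (5.75%), led by Gzmb and Scin, carried mast and basophil markers together and were left undivided. ILC2-like cells had a summed level of the 10 ILC2 markers of 3437 CPM (UMIs per 1000000 UMIs of the class), against 184 CPM in mast-like cells. For the 7 mast markers these levels were 301.6 and 43227 CPM. Carrying both mast and basophil markers was not particular to the undivided cells. Basophil markers summed to 3931.5 CPM there and to 6323.5 CPM in mast-like cells, and mast markers to 10422 CPM in the undivided cells. The 6 T cell markers summed to 467 to 541 CPM by litter in ILC2-like cells. B-like cells (199 cells, median 3528 UMIs) held few UMIs of the 7 genes and served as a class for comparison. Their UMIs were uneven, since a single cell held 20 of the 34 Areg UMIs. Whether these UMIs were free RNA was not tested. In the ILC2-like sum, hemoglobin and other erythroid markers reached 244 CPM in DEX-1 against 9.69 to 14.5 CPM in the other litters; their part in the results was not tested. The 7 genes and the other cytokines were left out of the clustering, but Il6 was still among the 10 genes leading the basophil-like cluster, and Il13 among those leading the undivided one. Classes still came from the same cells, so differences between classes are described without a test.

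Of the 7 genes, Il5, Il9, Il13, Areg and Csf2 had more UMIs in ILC2-like cells than in any other class, Il4 had most in mast-like cells and Il6 in basophil-like cells. ILC2-like cells held 95.1% of Il5 UMIs, 80.7% of Csf2 UMIs, 65.3% of Areg UMIs, 39.1% of Il13 UMIs, 13.8% of Il4 UMIs and 0.0777% of Il6 UMIs. Undivided, mast-like and basophil-like cells held 34.8%, 13.3% and 8.86% of Il13 UMIs, together more than the ILC2-like cells. These shares depend on how many cells of each class the sort delivered and do not describe the lung. Basophil-like cells in particular numbered 97, 177, 150 and 68 by litter.

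**Figure D1:**
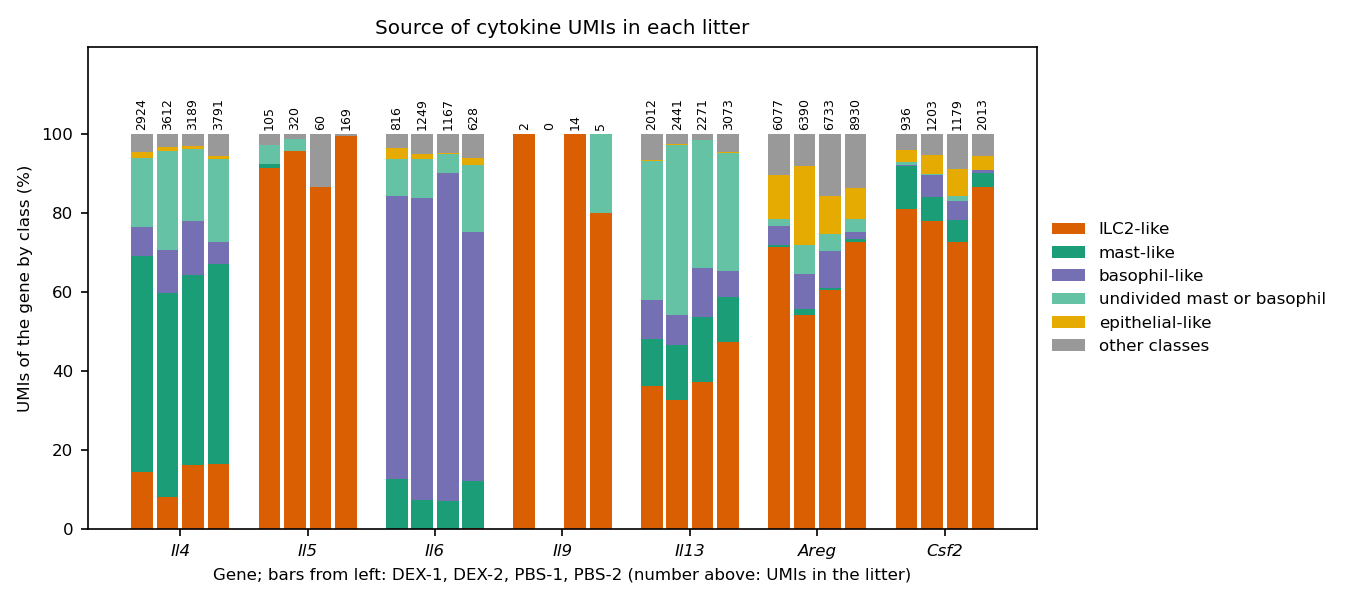
Each bar is the UMIs of 1 gene in 1 litter, divided by class in percent, with the number of UMIs above it. Il4 is mostly in mast-like and undivided cells, Il6 in basophil-like cells, and Il5 and Csf2 in ILC2-like cells in all 4 litters. Il9 rests on 21 UMIs in all.

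Il4 was found in every class of the mast and basophil lineages and in ILC2-like cells. Its level in mast-like cells was 406, 422, 436 and 478 CPM by litter. In ILC2-like cells it was 90.2, 77.3, 132 and 119.9 CPM, below every mast-like value. Basophil-like cells (295 ± 50.6 CPM, mean ± SD, n = 4 litters) and undivided cells (393 ± 61.4) lay between, and the ranges of mast-like, undivided and basophil-like cells overlapped from one to the next. After each cell was thinned to 2000 UMIs, 54.1% of mast-like, 48.0% of undivided, 41.9% of basophil-like and 18.6% of ILC2-like cells held an Il4 UMI, against 1.62% of B-like cells. Without thinning the shares were 80.3%, 90.9%, 81.1%, 43.9% (median 7192 UMIs) and 3.02%. In ILC2-like cells there were 34.9 Il4 UMIs per 100 UMIs of the mast markers, against 1.01 in mast-like cells and 2.81 in B-like cells; the part of mast cell RNA in the ILC2-like value was not tested. Mesenchymal-like cells reached 118 ± 51 CPM of Il4, in the range of ILC2-like cells, but at 1.84 Il4 UMIs per 100 mast marker UMIs and with mast markers at 6090 CPM; there too it was not tested.

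Il13 had 3829 UMIs in ILC2-like cells and 3408 in the undivided cells, the latter from 418 cells with a median of 15853 UMIs against 7192. At 2000 UMIs per cell the counts were 882 and 354, and the share of Il13 UMIs in undivided cells was 19.1% instead of 34.8%. The undivided cells had the highest level, at 520, 377, 503 and 548 CPM, above every litter of every other class. ILC2-like cells (214 ± 51.3 CPM, n = 4) and basophil-like cells (218 ± 64.4) did not differ beyond their spread, and mast-like cells had 83.0 ± 19.1 CPM. At 2000 UMIs per cell 42.6% of undivided, 22.9% of basophil-like, 19.3% of ILC2-like and 8.80% of mast-like cells held an Il13 UMI, against 1.08% of B-like cells. Among mast-like clusters the 156 cells led by Mrgprb1, a receptor of connective tissue mast cells, had 275 CPM, while the clusters led by Mcpt2 and by Cma1 had 67.2 and 51.7 CPM. Thus Il4 and Il13, neighbours in the genome, were not ordered alike over the classes: Il4 was highest in mast-like cells and Il13 in the undivided cells.

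Il5 stood in ILC2-like cells almost alone. It had 622 UMIs there, in 168 of 2077 cells (8.09%, exact binomial 95% interval 6.95 to 9.35%), while the undivided cells had 15 UMIs in 4 cells. None of 492 basophil-like cells held one, which at 3 counts of the total allows a share of up to 0.610%, and 1 of 2316 mast-like cells did. Its level in ILC2-like cells was 20.4, 80.2, 13.2 and 32.2 CPM by litter, so that it varied more between litters than any other gene with over 100 UMIs in these cells. Csf2 was likewise highest in ILC2-like cells, at 161, 246, 218 and 335 CPM, and all litters of all other classes lay at or below 47.4 CPM. Of the ILC2-like cells 28.6% held a Csf2 UMI, or 17.1% at 2000 UMIs. Epithelial-like cells appeared close at 31.8%, but their median was 20840 UMIs and the share fell to 5.59% at 2000 UMIs, with a level of 27.9 ± 9.88 CPM. B-like cells had no Csf2 and no Il5 UMI in 199 cells, which allows a share of up to 1.51%.

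Areg was the ILC2-like gene with a second large source outside the blood lineages. Its level in ILC2-like cells was 919, 908, 1033 and 1247 CPM, and the lowest of these exceeded every litter of every other class. Epithelial-like cells (382 ± 91.1 CPM) and basophil-like cells (371 ± 118) followed and did not differ beyond their spread, whereas mast-like cells, at 13.9 ± 5.99 CPM, lay below the B-like mean of 43.2 ± 50.6 CPM. At 2000 UMIs, an Areg UMI was held by 41.7% of ILC2-like, 38.5% of epithelial-like and 19.2% of basophil-like cells. The shares were 11.3% in undivided, 1.15% in mast-like and 2.16% in B-like cells, so the mast-like share did not exceed the B-like share.

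Basophil-like cells held 75.1% of Il6 UMIs, undivided cells 9.46% and mast-like cells 9.12%. The level in basophil-like cells was 655, 675, 803.5 and 551 CPM, and 443 of 492 cells (90%) held a UMI, or 66.2% at 2000 UMIs. Undivided cells had 50.9 ± 11.2 CPM and mast-like cells 22.3 ± 3.51 CPM, while ILC2-like cells had 3 UMIs in 2 of 2077 cells. Il9 was at the edge of detection. It had 21 UMIs in 11 cells, of which 10 cells were ILC2-like and 1 undivided, and no mast-like cell of 2316 held one, which allows a share of up to 0.130%. Of the 20 ILC2-like UMIs, 14 came from 5 cells of PBS-1.

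**Figure D2:**
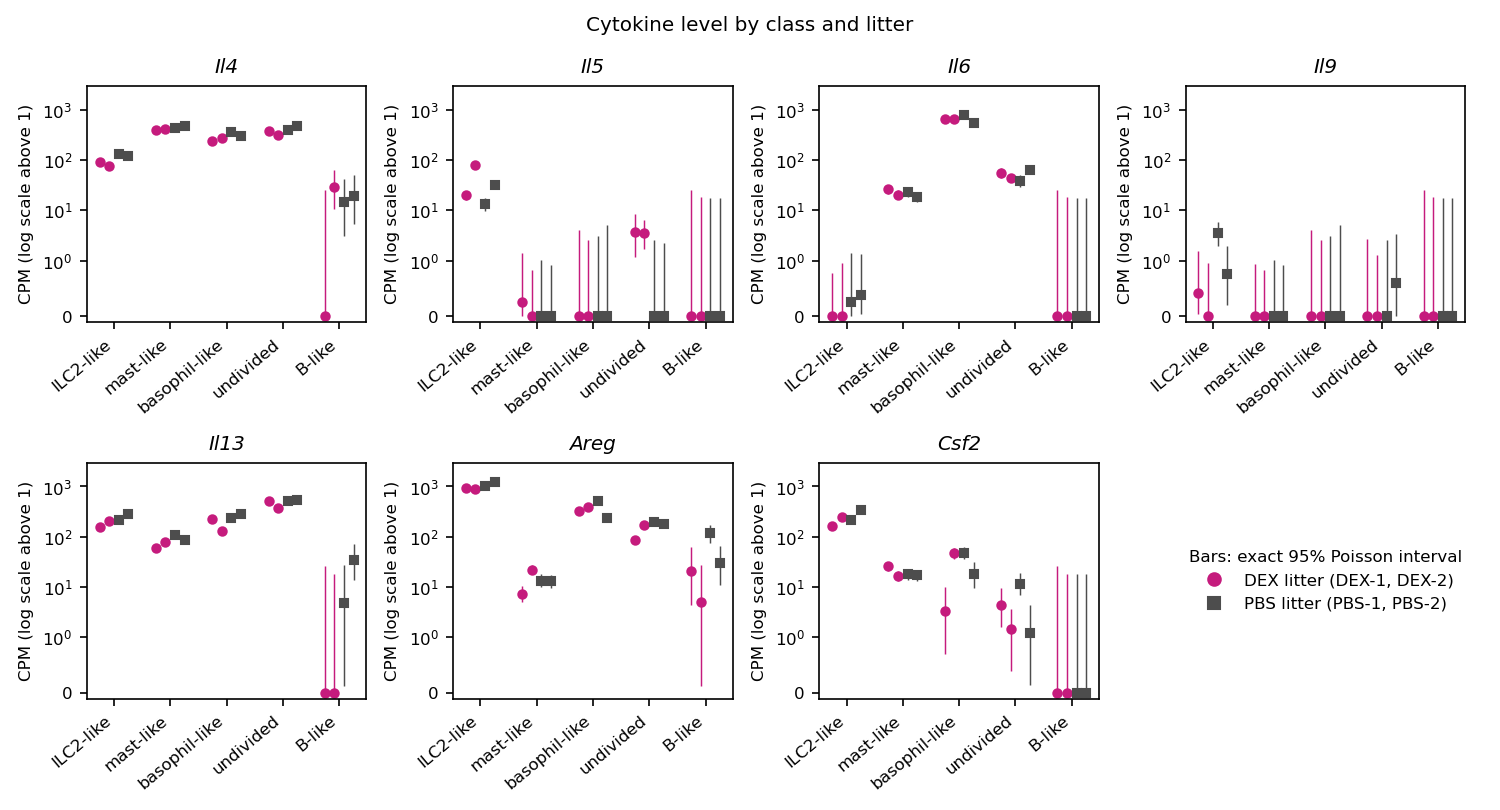
Level of each gene (CPM, logarithmic above 1 and linear below) in 5 classes, 1 point per litter, circles for DEX and squares for PBS; bars are exact 95% Poisson intervals and cover counting error only. Il5 and Csf2 are highest in ILC2-like cells, Il6 in basophil-like cells and Il4 in mast-like and undivided cells.

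Within the ILC2-like class, 1393 cells led by Hilpda and Calca were the largest cluster, with 264 cells led by Ms4a4b and S100a4, 391 cycling cells led by Ube2c and Birc5, and 29 cells led by Tox. Of the 5 genes with over 100 ILC2-like UMIs, Il4, Il5, Csf2 and Areg were lower in the Ms4a4b cluster than in the Hilpda cluster in all 4 litters, and Il13 in 3 of 4, since DEX-2 had 269.6 against 182 CPM. The levels over all litters were 77.1 against 140.4 CPM for Il4, 142 against 251 for Il13, 5.80 against 46.8 for Il5, 72.2 against 297 for Csf2 and 611 against 1229 for Areg. Cycling cells had 60.0 CPM of Il4, the lowest of these 3 clusters, with 187 CPM of Il13, 27.7 of Il5, 222 of Csf2 and 884 of Areg.

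The UMIs of each gene were unevenly spread over ILC2-like cells. A share of 0.5 of the Il5 UMIs stood in 20 of 2077 cells, and the same share took 60 cells for Csf2, 88 for Il13, 149 for Areg and 210 for Il4. A single cell held up to 34 UMIs of Il5, 114 of Csf2, 71 of Il13 and 140 of Areg, but no more than 18 of Il4. Il5 therefore rested on few cells in each litter: the 5 highest cells held 42 of 96, 114 of 306, 30 of 52 and 87 of 168 UMIs.

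**Figure D3:**
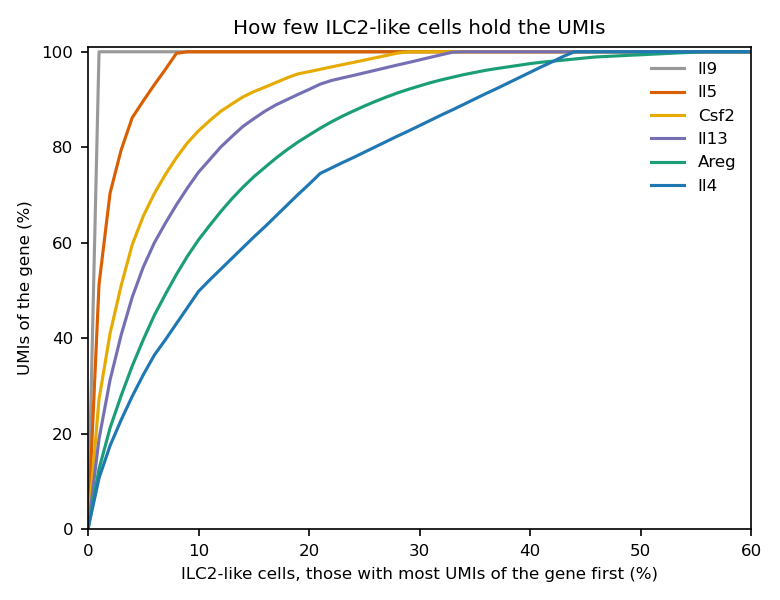
Cumulative share of the UMIs of each gene (percent) over ILC2-like cells ranked from most to fewest UMIs of that gene (percent of 2077 cells, shown to 60%). The top 5% of cells hold 89.7% of Il5 UMIs, 65.6% of Csf2, 54.9% of Il13, 39.7% of Areg and 32.3% of Il4.

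Co-expression was read in ILC2-like cells at 2000 UMIs, as the share of cells with UMIs of both genes divided by the share that independent genes would give. A value of 1 is independence. Il5 and Il13 had ratios of 1.60, 1.63, 3.07 and 2.20 by litter, a mean of 2.12 ± 0.69 (SD, n = 4 litters). Of 75 Il5-positive cells 37.3% held Il13, against 18.6% of Il5-negative cells, although only 28 cells held both. Il5 with Csf2 (1.77 ± 0.35), Il13 with Csf2 (1.498 ± 0.18), Il5 with Areg (1.49 ± 0.40) and Il4 with Il13 (1.31 ± 0.18) were also above 1 in all 4 litters.

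The remaining 5 pairs were not above 1 throughout. Il4 and Areg were below 1 in every litter, at 0.83, 0.75, 0.85 and 0.85, and 34.8% of Il4-positive cells held Areg against 43.2% of Il4-negative cells. Without thinning this ratio was 0.97 ± 0.02, still below 1 in every litter. Il13 with Areg (1.06 ± 0.10), Areg with Csf2 (1.06 ± 0.10) and Il4 with Csf2 (0.94 ± 0.10) lay on both sides of 1. Il4 with Il5 (0.96 ± 0.80) rested on 14 double-positive cells, none of them in DEX-1. Without thinning 7 pairs were above 1 in all litters, with Il13 and Areg and Areg and Csf2 added. When a positive cell needed 2 UMIs, 2 pairs were above 1 in all litters, Il4 with Il13 and Areg with Csf2.

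**Figure D4:**
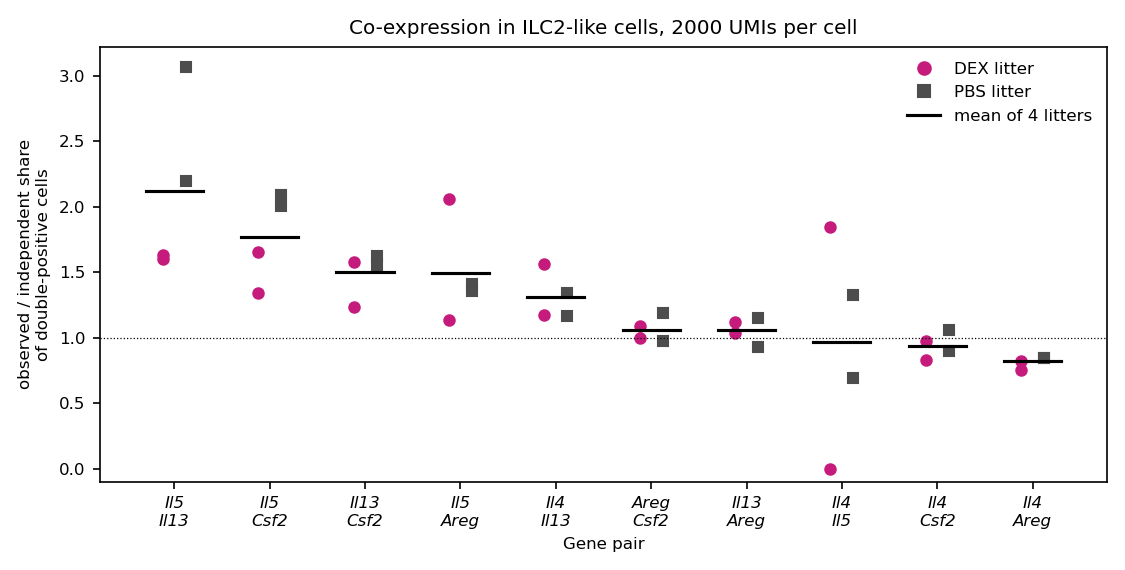
Observed over independent share of double-positive ILC2-like cells for 10 gene pairs, at 2000 UMIs per cell; circles are DEX litters, squares PBS litters, black lines the mean of 4 litters and the dotted line 1. The 5 leftmost pairs are above 1 in every litter, and Il4 with Areg is below 1 in every litter.

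At this depth 662 of 2052 ILC2-like cells (32.3%) held none of Il4, Il5, Il13, Areg and Csf2, 872 (42.5%) held 1, 390 (19.0%) held 2, 107 (5.21%) held 3 and 21 held 4 or 5. Independent genes at the same single shares would give 30.6%, 43.7%, 20.96% and 4.38% for none to 3. The share with 3 was above the independent value in every litter, and the share with none in 3 of 4, since PBS-1 had 31.5% by both. In mast-like cells Il4 and Il13 had a ratio of 1.24 ± 0.22 and Il4 and Il6 of 1.33 ± 0.19, both above 1 in all litters. In the undivided cells, the class richest in Il13, the Il4 and Il13 ratio was 0.96 ± 0.11. For basophil-like cells Il6 with Areg was 1.18 ± 0.14, above 1 in all litters.

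Genes whose level followed each member most closely over ILC2-like cells were taken as the 3 with the highest mean within-litter Pearson r, out of 8761 genes over 2077 cells. All values were low, and points share the depth of their cell. Il4 was followed by Zfp36 (mean r 0.22 over litters), which encodes an RNA-binding protein that destabilizes cytokine transcripts, its relative Zfp36l1 (0.17) and Il13 (0.17). Il13 was followed by Il4 (0.17), Il5 (0.16) and Pla2g7 (0.15), and Il5 by Fam110a (0.17), Il13 (0.16) and Dad1 (0.16). Areg was followed by the transcription factor Bhlhe40 (0.16), Csrp1 (0.13) and Aldh2 (0.12), and Csf2 by H2-K1 (0.17), Bhlhe40 (0.16) and the integrin gene Itgav (0.15). Most of these ranks changed at 2000 UMIs. Zfp36 (0.15) was still first for Il4, but Zfp36l1 and Il13 were replaced by Atp4a and Junb. For Il13 the first 3 were then Pla2g7, Csf2 and Fam102b, for Il5 Ccdc184, Il13 and Calca, for Areg Csrp1, Bhlhe40 and Ndufa1, and for Csf2 H2-K1, Bhlhe40 and Gadd45b, all with a mean r from 0.10 to 0.13. Il6 and Il9, with 2 and 10 positive ILC2-like cells, were not ranked.

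The comparison of DEX with PBS litters asked whether the cytokine transcripts differed in fetal cells after maternal glucocorticoid exposure. UMIs were summed per litter and class, giving 3817622 to 5211430 UMIs per litter for ILC2-like cells, and tested with edgeR's quasi-likelihood test over all genes. Il4 was lower in ILC2-like cells of DEX litters. The 2 DEX litters held 425 UMIs (90.2 CPM) and 295 UMIs (77.3 CPM), and the 2 PBS litters held 518 (132 CPM) and 625 (119.9 CPM). The groups did not overlap, at 83.7 ± 9.12 against 126 ± 8.22 CPM (mean ± SD, n = 2 litters each). Its log2 fold change was -0.57 ± 0.10 (SE), with an edgeR adjusted p of 0.00545. It was the only one of the 5 members that passed the filter on low counts to be called, while 2.45% of 10647 genes tested were called; Il6 and Il9 did not pass this filter. The call held under all 15 alternatives, with adjusted p from 2.05e-06 to 0.0332.

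The lower Il4 was seen in each of the 3 larger ILC2-like clusters. Both DEX litters lay below both PBS litters in the Hilpda cluster (116 ± 16.2 against 159.6 ± 5.70 CPM), the Ms4a4b cluster (70.1 ± 1.32 against 89.0 ± 5.14) and the cycling cluster (44.0 ± 2.64 against 76.6 ± 9.82). These clusters divide the cells and litters of the call, so they are no separate support. Over all genes tested in the ILC2-like class 42.5% did not overlap between groups, and this share was not counted by cluster. Fewer cells held the transcript: at 2000 UMIs the Il4-positive share was 15.6% and 15.3% with DEX and 21.5% and 21.7% with PBS, a difference of -6.16 percentage points. The exact two-sided permutation p of this difference was 0.333, the smallest that 2 litters against 2 can give. Mast markers in the same sums were 265 and 365 CPM in DEX and 284 and 301.8 CPM in PBS litters, so they overlapped. The part of mast cell RNA in the Il4 difference was not tested.

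Il13 and Areg were also lower in both DEX litters than in both PBS litters of ILC2-like cells, but neither was called. Il13 had 154 and 209 CPM with DEX against 215 and 279.8 with PBS, a log2 fold change of -0.45 ± 0.14 (edgeR adjusted p 0.134), and DEX-2 and PBS-1 nearly met. Areg differed by -0.31 ± 0.09 (edgeR adjusted p 0.0870), at 914 ± 7.89 CPM with DEX against 1140.2 ± 151 CPM with PBS. Of the 5 members tested, 3 thus did not overlap between groups, where 42.5% of all genes tested did not overlap. Csf2 overlapped, at 203 ± 59.9 against 276 ± 82.7 CPM, and had a log2 fold change of -0.45 ± 0.19 (adjusted p 0.323). These values moved with single litters: without DEX-2 the log2 fold changes of Il13 and Csf2 were -0.69 and -0.80. Without PBS-1 those of Il13, Csf2 and Areg were -0.63, -0.73 and -0.45. The thinned positive share pointed the same way for Il13 (16.4% against 21.8%) and Areg (39.0% against 44.0%), and was 17.4% against 16.8% for Csf2. For Il13 the clusters differed in direction, with 184 ± 2.84 against 301.3 ± 44.0 CPM in the Hilpda cluster and 195 ± 106 against 67.2 ± 34.9 CPM in the Ms4a4b cluster; this contrast was not tested.

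Il5 was the member with a higher mean in DEX, at 50.3 ± 42.3 against 22.7 ± 13.5 CPM, and the groups overlapped. The difference of 1.07 ± 0.47 on the log2 scale (edgeR adjusted p 0.352) turned to -0.22 without DEX-2. Leaving out DEX-1 gave 1.79, leaving out PBS-1 gave 0.60, and leaving out PBS-2 gave 1.90. Each fit with a litter left out had a single litter in one group, whose spread its p-value cannot measure. Il5 was positive in 41 of 553, 62 of 456, 24 of 490 and 41 of 578 cells by litter, a share above both PBS litters in both DEX litters (7.41% and 13.6% against 4.90% and 7.09%). At 2000 UMIs these shares overlapped (2.91% and 7.08% against 1.45% and 3.53%). In the cycling cluster both DEX litters (33.1 and 55.4 CPM) lay above both PBS litters (3.34 and 19.3 CPM), but PBS-1 had 4 UMIs in 3 of 82 cells. In the Hilpda cluster, with 68.3% of all Il5 UMIs, the groups overlapped, at 15.7 and 123 CPM with DEX against 20.6 and 43.8 CPM with PBS. Neither cluster was tested, and the share of all genes without overlap was not counted by cluster. Without the cell holding most UMIs of each member in each litter the log2 fold change was 1.16. Il9 had 2 and 0 UMIs with DEX and 14 and 4 with PBS, too few to compare.

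No member was called in mast-like, basophil-like or undivided cells, where edgeR called 0.00955%, 0% and 0.0331% of genes. In the basophil-like fit, which called no gene by edgeR or DESeq2, 108 of 7447 genes had an unadjusted p under 0.05 by edgeR and 11 by DESeq2. The summed level of Il4 was lower in both DEX litters than in both PBS litters in each of these classes. The log2 fold changes were -0.14 ± 0.11 in mast-like, -0.34 ± 0.22 in basophil-like and -0.29 ± 0.13 in undivided cells, and the adjusted p were 0.976, 0.999 and 0.914. Within each mast-like cluster, however, the Il4 levels of the groups overlapped. The thinned Il4-positive shares overlapped as well. They were 52.5 and 54.2% with DEX against 51.1 and 57.9% with PBS in mast-like cells. In basophil-like cells they were 34.0 and 45.1% against 48.6 and 29.9%, and in undivided cells 51.8 and 40.3% against 55.3 and 50.5%. Il13 was lower in both DEX litters of mast-like cells (60.6 and 77.7 against 106 and 87.1 CPM) and basophil-like cells (226 and 129 against 234 and 282 CPM), by -0.47 ± 0.15 and -0.53 ± 0.27, with adjusted p of 0.586 and 0.999. Of all genes tested, 33.9% in mast-like, 25.3% in basophil-like and 33.2% in undivided cells did not overlap between groups. The same litters stand behind every class and all were captured in 1 pool, so these values are not independent of each other. Without DEX-2 the log2 fold change was -3.30 for Csf2 in basophil-like cells and -1.09 for Areg in undivided cells. The Csf2 value rests on 3 UMIs in 2 of 97 basophil-like cells of DEX-1.

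Il6 in its main source did not separate the groups, at 665 ± 14.3 CPM with DEX and 677 ± 179 CPM with PBS in basophil-like cells, a log2 fold change of -0.02 ± 0.24. The test of the difference between classes used ILC2-like and mast-like sums of the same litters, in which 0.156% of 11548 genes were called. The effect on Il4 was lower in ILC2-like than in mast-like cells by -0.44 ± 0.14 on the log2 scale, which was not called (adjusted p 0.539). For Il13 the effects differed by 0.03 ± 0.19 (adjusted p 1). An effect of DEX on Il4 in ILC2-like cells was thus called, and a difference from mast-like cells was not.

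**Figure D5:**
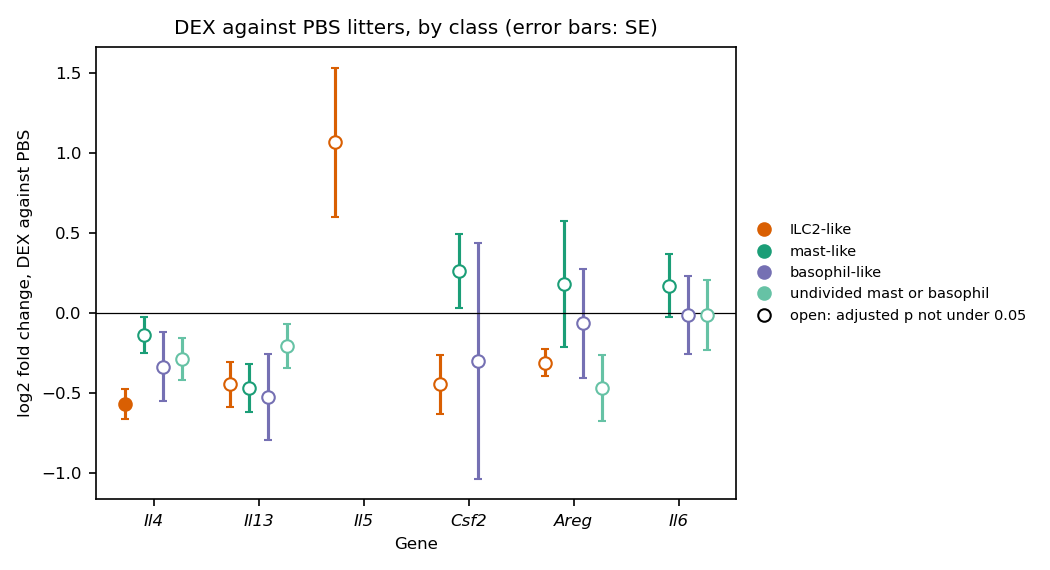
log2 fold change of DEX against PBS litters by gene and class, with SE; filled points have an edgeR adjusted p under 0.05. Il4 in ILC2-like cells, at -0.57, is the filled point; Il4 and Il13 are below 0 in all 4 classes, and Il5 was tested in ILC2-like cells only.

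Other genes of the pathway were read from lists in the same ILC2-like fit. Over all 10647 genes tested 2.45% were called, the share to set beside each count below. The lists were chosen with earlier results of these data known, so the counts are a description. Of 30 regulators of type 2 cytokine transcription 29 were tested, of which 1 was higher and 4 lower with DEX. Their median log2 fold change was 0.06 against 0.00 over all genes. Lower were Maf, a transcription factor that acts on the Il4 promoter in T helper cells (-0.47 ± 0.10, edgeR adjusted p 0.0288), Bcl11b, a factor needed for ILC2 identity (-0.43 ± 0.10, 0.0382), and Cish (-0.51 ± 0.08, 0.00375) and Socs1 (-0.49 ± 0.09, 0.00938), feedback inhibitors of cytokine signalling. Ets1 was higher (0.41 ± 0.09, 0.0279). Of 12 receptor genes for the 7 mediators 6 were tested, and Il9r, the IL-9 receptor, was lower (-0.56 ± 0.13, adjusted p 0.0379). Among the 11 neighbours of the cytokine locus in the matrix 7 were tested, and Irf1 was higher (0.52 ± 0.09, adjusted p 0.00820), at 83.1 and 84.8 against 58.8 and 58.2 CPM after TMM scaling. Of 27 other cytokines 10 were tested and none was called. Gata3, the ILC2 master regulator, had a log2 fold change of 0.10 ± 0.07 (adjusted p 0.611). None of these lists had a call in mast-like or basophil-like cells, and in the undivided cells Il1b was lower (-3.13 ± 0.41, adjusted p 0.00133).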

How the data were processed

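The authors deposited unnormalized counts of UMIs, made with Cell Ranger 7 on mm10 (submitters' processing notes). The 5′ gene expression and hashtag libraries of 1 pool share 1 matrix of 10648 barcodes, 32285 genes and 4 hashtags. The 2 library records hold all litters, so groups came from hashtags, matched by number to the antibodies in the labels. The number of mothers in a legend of the study is lower than in its methods and labels, and the hashtags were followed. The p-values of fits with 2 litters in each group measure the spread between litters. For the class difference they measure the spread between classes within litters. A fit with 1 litter left in a group cannot measure the spread of that group, and neither can its p-value.

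Barcodes under 200 genes (13) or over 5% mitochondrial UMIs (231) were removed. Of 10409 passing barcodes HTODemux (Seurat 5.3.0) called 7268 singlets, 736 hashtag doublets, which were dropped, and 2405 with no hashtag, not used. Scrublet's own threshold marked 1 barcode and had not worked; same-litter doublets (3.38% of singlets expected) stayed in, and 252 singlets with the highest scores were left out as an alternative. Cells were clustered with scanpy 1.11.5 (2000 variable genes, 20 components, 15 neighbours, Leiden resolution 0.5) without the members and the other listed cytokines. Clusters were named from marker lists with limits set after the clusters were seen; 911 cells stayed unnamed. The authors' annotation was not used here, so classes may differ from the study's because they were rebuilt.

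CPM are UMIs per 1000000 of a class and litter, unscaled unless TMM is named. Depths gave 3 counts a level of 0.576 to 0.786 CPM in ILC2-like sums. Shares have exact Clopper-Pearson and levels exact Poisson intervals at a confidence of 0.95, covering counting error only; where no cell held a UMI, the share allowed is 3 counts of the total in place of the exact limit. Thinning drew 2000 UMIs per cell without replacement and left out shallower cells, keeping 2052 of 2077 ILC2-like, 2080 of 2316 mast-like, 485 of 492 basophil-like and 185 of 199 B-like cells. Sums per litter were tested with edgeR 4.0.16 (glmQLFTest, TMM, filterByExpr; two-sided). Calls needed an adjusted p under 0.05 after Benjamini-Hochberg correction, and SE is the log2 fold change over the square root of F. DESeq2 1.42.0 was an alternative. The fits were tested on simulated data with 2-fold and 4-fold changes put into genes above a minimum mean count. Smaller changes and changes in genes with lower counts were not simulated. Of the 2-fold changes, 86% were recovered in the ILC2-like, 83% in the mast-like, 32% in the basophil-like and 73% in the undivided fit. For the class difference 57% were recovered. False calls made up 7.92%, 9%, 6.82%, 5.53% and 5.23% of all calls in that order, with changes of both sizes present. Co-expression and correlations have no p. Undivided cells were added to the tests after the data were seen. Named genes were the members, the 3 closest genes per member, and listed genes that were called; Gata3 and the genes naming clusters were chosen after values were seen. The members and lists were chosen with earlier results of these data known. Positions came from GENCODE M21 and promoters from RefSeq; all 7 members matched.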

Additional observations from a re-analysis of the deposited data

How the results depend on the processing

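The count of called genes moved with the processing, while the cause was not tested. In ILC2-like cells 261 genes were called, against 115 by DESeq2, 531 with no filter on low genes, 114 at 2000 UMIs per cell, 164 when a Gata3 UMI was required, 159 without cycling cells, and 232 to 430 without each litter in turn; fewer cells or genes entered the thinned, Gata3 and cycling alternatives. In mast-like cells 1 gene was called, against 6 by DESeq2, 168 with no filter, 0 with MULTIseqDemux, 3 when thinned and 1 to 45 without each litter. In basophil-like cells 0 were called, against 16 with no filter and 10 to 25 without each litter. For undivided cells 3 became 24 to 71, and for the difference between ILC2-like and mast-like cells 18 became 107 with no filter. A lone litter left in a group was assumed to vary like the other groups.

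Litter numbers only name mothers. Same-numbered litters deviated together with r of 0.08 in ILC2-like, 0.25 in mast-like and -0.31 in basophil-like cells, so no pairing is shown. With the replicate block the calls were 419, 249 and 0, and Il5, Il13, Areg and Csf2 in ILC2-like cells then passed at log2 fold changes of 1.11, -0.44, -0.30 and -0.43. A crossed replicate block, added after seeing the data, gave 4 calls in basophil-like cells.

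Of 10 gene pairs in ILC2-like cells 5 co-occurred above 1 in every litter, against 7 without thinning and 2 when 2 UMIs were required. With no filter Il5, Il9, Il13, Areg and Csf2 in ILC2-like cells also passed, and Il13 passed when thinned (adjusted p 0.0299).

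Some log2 fold changes that were not called changed sign. When thinned, Il6 in mast-like cells was -0.0453 and the Il13 difference between classes -0.218; with MULTIseqDemux the latter was -0.00132. In basophil-like cells Il6 and Areg were 0.0208 and 0.0533 with the replicate block and 0.0128 and 0.0257 with the crossed block. Without each litter in turn, Il5 in ILC2-like cells ranged from -0.216 to 1.90. In mast-like cells Il6 ranged from -0.0177 to 0.359, Areg from -0.812 to 0.741 and Csf2 from -0.0825 to 0.569. In basophil-like cells Il6 ranged from -0.297 to 0.349, Areg from -0.539 to 0.688 and Csf2 from -3.3 to 0.705. In undivided cells Il6 ranged from -0.304 to 0.402.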

Other observations

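Barcodes without a litter were looked at for the same genes. The 2405 passing barcodes with no hashtag (median 6295 UMIs) held no Il5 UMI, 1 Il9 UMI and 7.42 CPM of Il4, against 164 CPM of Il4 in the singlets. Areg was the exception, at 189 CPM with 23.2% positive barcodes, against 342 CPM and 28.3% in singlets. The 736 barcodes with several hashtags (median 17163 UMIs) had 130 CPM of Il4, 5.06 of Il5, 32.7 of Il6, 90.3 of Il13, 304 of Areg and 43.3 of Csf2.

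In classes where the member was not ranked above, chosen after the values were seen, Il6 in basophil-like cells was followed most closely by the chemokine gene Ccl3 (mean within-litter r 0.34, 492 cells), Mpc2 (0.31) and the chemokine gene Ccl4 (0.30). In the undivided cells Il13 was followed by Gzmb, which encodes granzyme B (0.47, 418 cells), Il4 (0.40) and Nkg7 (0.39). In mast-like cells Il4 was followed by Itm2b (0.21), Hs3st1 (0.16) and Nr4a1 (0.16). At 2000 UMIs the first 3 were Ccl3 (0.23), Actb and Mpc2 for Il6, Gzmb (0.35), Actb and Actg1 for Il13, and H3f3b (0.14), Itm2b and Mcpt4 for Il4.

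Il17a, not a member, was tested among the other cytokines in ILC2-like cells and was uneven, at 28.5 and 0.533 CPM with DEX and 58.5 and 22.6 CPM with PBS after TMM scaling (edgeR adjusted p 0.396).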
